A study of Rattus norvegicus with 30 samples.

Results

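Osteogenic and chondrogenic medium were compared directly after 12 h on rat bone marrow mesenchymal stem cells (BMSCs). The comparison rested on 6 of the 30 samples of the series, namely all 3 labelled osteogenesis at 12 h (OS) and all 3 labelled chondrogenesis at 12 h (CH), taken by their titles. The series followed BMSCs through osteogenesis, adipogenesis and chondrogenesis, with 3 samples for each lineage at 3, 12 and 72 h and 3 of undifferentiated cells at 0 h (CON). Per the study's methods, the cells were flushed from the femurs and tibias of 3 female Sprague Dawley rats aged 3 weeks and used at passage 2. OS samples had spent 12 h in a commercial osteogenic medium and CH samples 12 h in a commercial chondrogenic medium, and the composition of either is not given in the sources used here. The samples at 3 and 72 h had the same media for those times, whereas CON cells received neither medium. Each sample was RNA from 3 pooled cultures, and how these relate to the 3 animals is not stated, so p-values measure the spread between these samples. Uninduced cells kept for 12 h were not analysed here, so time in culture and the effect of either medium cannot be told apart in a comparison with CON. A difference between OS and CH at 12 h has the same time in culture on both sides.

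BMSCs are cultured marrow stromal cells that can be driven toward bone, cartilage or fat by the factors in their medium. Osteoblasts deposit a mineralized collagen matrix under regulators such as Runx2, Sp7 and Dlx family members, whereas chondrocytes depend on Sox9 and make a matrix rich in type II collagen and aggrecan. Growing cells in culture also pass through the cell cycle, in which genes of DNA replication are used in S phase and genes of chromosome segregation in mitosis.

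Values were CPM, the reads of a gene scaled by the total reads of its sample. They are not scaled for gene length, so levels of different genes were not compared. The reads behind the 6 samples numbered 6312409 to 6923375. Of these, the genes listed in the files held 68.66, 71.37 and 69.03% in the OS samples and 61.98, 67.2 and 61.35% in the CH samples. A signal of 3 reads, 0.4333 to 0.4753 CPM depending on the sample, was taken as the floor, which covers counting error only. A name was kept for testing where 3 or more of the 30 samples reached 1 CPM, which left 4363 of 9999 names, and limma was fitted to log2(CPM + 1). Differences were read as log2 fold changes, OS minus CH, so that positive values are higher in OS. A gene was called when this difference reached 1 in either direction with an adjusted p, over all tested genes, under 0.05. On this scale the change of genes with low values is understated. Agreement of replicates was measured by chi-square per degree of freedom between the reads of 2 samples, larger for less agreement. It was 3.164 to 4.601 between OS samples. In CH it was 9.106 between replicates 1 and 2, 18.324 between replicates 2 and 3, and 6.493 between replicates 1 and 3.

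After 12 h, genes of DNA replication and mitosis, the chemokine receptor gene Ccr1 and the hypoxia-responsive Egln3 were higher in OS, while the cartilage regulator Sox9, the aggrecanase gene Adamts4 and Angptl7 were higher in CH. In all, 696 of the 4363 tested genes (16.0%) were called between the media. Of these, 387 (8.87% of tested genes) were higher in OS and 309 (7.08%) were higher in CH. The log2 fold changes ran from 7.24 for Ccr1 to -6.24 for Angptl7, with a median of 1.55 among genes higher in OS and -1.38 among genes higher in CH. All tested genes together had a median of 0.00. At an unadjusted p under 0.05 in limma, 1055 of the 4363 tested genes were higher in OS and 835 in CH. Counts of list members at that cut are to be read beside these. Differences of 2 or more on the log2 scale were found for 118 genes higher in OS and 60 higher in CH. In 693 of the called genes the 3 OS samples lay on 1 side of the 3 CH samples, whereas such a separation was found in 51.0% of all tested genes. Genes with a mean of at least 10 CPM over the 6 samples made up 365 of the calls, 237 higher in OS and 128 in CH. The share of calls that were higher in OS was 55.6% with limma and 42.1% with edgeR on the recovered reads, which shifted the median log2 fold change of all tested genes by -0.14. It was 50.2% with median-ratio scaling, 51.4% with quantile normalization and 48.6% with the listed genes rescaled to a common sum. A pseudocount of 0.1 gave 459 calls higher in OS and 454 higher in CH. In 32 called genes every sample of 1 medium was listed at 0.

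Low values needed care in these files. Of 42 ribosomal protein genes listed, 14 had a mean under 1 CPM over the 6 samples, 3 of them at 0 in all 6, while 15 lay above 100 CPM. Actb, which encodes beta-actin and is used by every cell, had 0, 1.2 and 1.98 CPM in OS and 1.59, 1.87 and 1.74 CPM in CH. Vim, the main intermediate filament of stromal cells, had 1.36, 0.299 and 0.457 CPM in OS and 0.722, 1.25 and 0.634 CPM in CH. These genes are abundant in cultured stromal cells, so a gene at or near 0 is described below as listed at that value, and nothing about its expression is drawn from it.

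The stromal label was checked against marker genes. Of 17 stromal markers 8 were listed, and Thy1, Cd44 and Itgb1 were above 10 CPM in all 6 samples. The 8 together summed to 18752, 18867 and 18937 CPM in the OS samples and 14047, 16599 and 12783 CPM in the CH samples, mostly from the integrin subunit gene Itgb1. Eng, Pdgfra, Nes and Twist1 stood at under 1 CPM in every one of the 6 samples. Cd44, the hyaluronan receptor of stromal cells, was the stromal marker that was called, with 1219, 1186 and 1202 CPM in OS and 521, 518 and 574 CPM in CH (log2 fold change 1.16, SE 0.13, adjusted p = 9.7e-09). All 3 OS samples were higher than the CH samples. In bulk RNA, fewer cells of a type and less RNA per cell cannot be told apart, and this holds for every difference below.

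Markers of other cell types were looked up in the same way. The 7 listed of 19 leukocyte markers summed to 2.69 to 7.32 CPM per sample, with Coro1a the most abundant and Adgre1 and Mrc1 listed at 0. For the endothelium, 6 of 13 markers summed to 0.904 to 2.60 CPM, led by Tek, with Erg and Esam at 0. Erythroid markers (2 of 9 listed, led by Klf1) reached at most 1.51 CPM and skeletal muscle markers (3 of 9, led by Myh3, with Myod1 at 0) at most 0.792 CPM. Of 8 neural and glial markers 5 were listed, and their sum differed between the media through Tubb3, a tubulin gene that is not restricted to neurons, while Gfap was at 0. Tubb3 had 66, 73.7 and 73.6 CPM in OS and 440.0, 491 and 434 CPM in CH (log2 fold change -2.66, SE 0.18, adjusted p = 7.4e-13). The CH samples were all higher, and the part of any other cell type in the results was not tested.

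DNA replication genes were higher in OS almost throughout. Of 58 genes on the list 36 were listed and 18 tested, of which 16 were called higher in OS and 0 in CH (limma; at an unadjusted p under 0.05 there were 17 and 0, and edgeR called 17 and 0). The median log2 fold change of the 18 was 2.20, or 2.30 with genes at the floor set to their bound, against 0.00 over all tested genes. Cdt1, which loads the replicative helicase onto origins, had 180.3, 202 and 188 CPM in OS and 15.2, 20.6 and 13.1 CPM in CH (log2 fold change 3.49, SE 0.18, adjusted p = 9.2e-16). All OS samples were far above all CH samples. Mcm3, a subunit of that helicase, had 803, 854 and 790.5 CPM in OS and 83.8, 88.2 and 74.8 CPM in CH, with the OS samples higher (log2 fold change 3.30, SE 0.16, adjusted p = 1.8e-16). Mcm6 and Mcm4, other subunits of the complex, had log2 fold changes of 3.24 and 2.94. Tyms, which makes thymidylate for DNA synthesis, had 266, 259.6 and 263 CPM in OS and 47.5, 49.7 and 52.6 CPM in CH, a log2 fold change of 2.37. For each of these genes the groups were separate. Rrm1, the large subunit of ribonucleotide reductase, differed less, with 1045, 1079.9 and 1072 CPM in OS and 439, 442 and 411 CPM in CH (log2 fold change 1.30). The exceptions were Mcm7 (0.94, adjusted p = 0.0049) and Rpa1 (0.40, adjusted p = 0.27), both of a few reads.

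Genes of mitosis moved the same way. Of 86 genes on that list 45 were listed and 33 tested, and 28 were called higher in OS and 0 in CH (limma; 32 and 0 at an unadjusted p under 0.05, and 27 and 0 with edgeR). Their median log2 fold change was 1.84, or 1.93 with bounds. Ccnf, the F-box cyclin that directs proteins to degradation in G2, had 557, 589.8 and 555 CPM in OS and 35.8, 38.8 and 35.6 CPM in CH (log2 fold change 3.91, SE 0.17, adjusted p = 1.2e-17). The OS samples formed a tight cluster well above the CH samples. Kif11, the motor that separates spindle poles, had 750.0, 674 and 737 CPM in OS and 87.1, 80.6 and 85.5 CPM in CH, a log2 fold change of 3.08. Birc5, the survivin of the chromosomal passenger complex, had 182, 182 and 198 CPM in OS and 30, 30.9 and 26 CPM in CH, apart between the media (log2 fold change 2.66, SE 0.19, adjusted p = 1.3e-12). Nuf2, a kinetochore protein, had 437, 394 and 407 CPM in OS and 69.3, 64 and 70.8 CPM in CH, a log2 fold change of 2.58. In all these genes the lowest OS sample was above the highest CH sample. Top2a, the topoisomerase that untangles sister chromatids, had 33.7, 31.1 and 34.1 CPM in OS and 2.31, 2.8 and 3.01 CPM in CH (log2 fold change 3.20). Not called were Bub3 (0.91), Cenpm (0.81), Cdc25b (0.76), and Cenpw and Smc4, which were listed at a few reads. With both lists joined, 44 of 51 tested genes were called (86.3%, against 16.0% of all tested genes). At a mean of at least 10 CPM the mitosis calls numbered 15. The medians of both lists were positive under each scaling tried, at 1.71 for mitosis with the listed genes rescaled to the same sum and 1.90 for replication after quantile normalization.

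Replication-dependent histone genes, which are used in S phase, were grouped after their values had been seen. Of 18 tested, 16 were called higher in OS and 0 in CH (17 and 0 at an unadjusted p under 0.05 in limma, and 16 and 0 with edgeR), with a median log2 fold change of 2.84. Of the 16, 8 had a mean of at least 10 CPM. Hist1h1a, a linker histone gene, had 252, 312 and 269.9 CPM in OS and 13.3, 12.6 and 10.3 CPM in CH (log2 fold change 4.42, SE 0.19, adjusted p = 8.4e-18). The OS samples were higher without overlap. The core histone genes Hist1h2ak (4.22) and Hist1h3b (3.86) followed. These genes form a family of near-identical copies, so the share of reads given to each copy is uncertain. Whether the library was made from mRNA or by ribosomal RNA depletion is uncertain too, and its part in the histone values was not tested. Beyond the lists, Fbxo5, an inhibitor of the anaphase-promoting complex, had 235, 199.8 and 204 CPM in OS and 15.5, 11.5 and 16.8 CPM in CH, a log2 fold change of 3.79. Pclaf, a partner of the replication clamp, had 256, 284 and 276 CPM in OS and 23.1, 19.5 and 15 CPM in CH, a log2 fold change of 3.77. Both were separate between the media. The gene named LOC102549061 had 1377, 1459 and 1268 CPM in OS and 52.1, 53.3 and 51.8 CPM in CH, a log2 fold change of 4.68.

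Promoters of these genes were searched for known cell cycle motifs because the genes of both lists moved together. RefSeq promoters of assembly GRCr8, 250 bases before to 50 after the start of each gene, were found for 13 of the 16 called replication genes and 22 of the 28 called mitosis genes. An E2F element was taken as TTTGGCGC, TTTCCCGC, TTTCGCGC or TTTGCCGC, a cell cycle homology region (CHR) as TTTGAA and a CCAAT box as CCAAT, all on either strand. The E2F letters were in 9 of the 13 replication promoters (69.2%), in 0 of the 22 mitosis promoters and in 2.25% of all 27457 promoters. CHR letters were in 1 of the 13 (7.69%), in 16 of the 22 (72.7%) and in 18.1% of all. The CCAAT letters were in 9 of the 13 (69.2%), in 17 of the 22 (77.3%) and in 37.7% of all. A match is a description of the sequence only. Shown are the promoters of the called genes with the largest log2 fold changes on each list, with matches to any of the 3 motifs in capitals and no base shared by 2 matches. They lie at chr19:67528999-67529298 on the plus strand for Cdt1, chr9:30733697-30733996 on the minus strand for Mcm3, chr10:13783620-13783919 on the minus strand for Ccnf and chr10:84473044-84473343 on the minus strand for Top2a, and each is printed 5′ to 3′ along its gene.
Cdt1: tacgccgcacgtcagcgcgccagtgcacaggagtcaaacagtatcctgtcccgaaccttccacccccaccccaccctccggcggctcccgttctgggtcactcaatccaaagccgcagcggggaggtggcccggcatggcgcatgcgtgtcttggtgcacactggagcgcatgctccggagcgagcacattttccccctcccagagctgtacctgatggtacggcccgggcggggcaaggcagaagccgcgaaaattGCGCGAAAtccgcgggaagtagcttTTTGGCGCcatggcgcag
Mcm3: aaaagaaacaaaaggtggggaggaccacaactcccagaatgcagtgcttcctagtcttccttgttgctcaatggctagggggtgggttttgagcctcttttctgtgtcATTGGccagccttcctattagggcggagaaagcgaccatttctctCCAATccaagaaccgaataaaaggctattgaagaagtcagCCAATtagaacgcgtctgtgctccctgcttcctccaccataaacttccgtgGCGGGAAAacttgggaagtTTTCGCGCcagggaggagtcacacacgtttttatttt
Ccnf: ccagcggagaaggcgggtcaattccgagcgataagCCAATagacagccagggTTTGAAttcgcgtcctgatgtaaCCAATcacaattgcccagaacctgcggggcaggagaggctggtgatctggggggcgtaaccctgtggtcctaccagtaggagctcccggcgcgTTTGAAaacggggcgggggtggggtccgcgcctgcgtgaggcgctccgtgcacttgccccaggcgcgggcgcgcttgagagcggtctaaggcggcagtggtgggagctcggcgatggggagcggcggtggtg
Top2a: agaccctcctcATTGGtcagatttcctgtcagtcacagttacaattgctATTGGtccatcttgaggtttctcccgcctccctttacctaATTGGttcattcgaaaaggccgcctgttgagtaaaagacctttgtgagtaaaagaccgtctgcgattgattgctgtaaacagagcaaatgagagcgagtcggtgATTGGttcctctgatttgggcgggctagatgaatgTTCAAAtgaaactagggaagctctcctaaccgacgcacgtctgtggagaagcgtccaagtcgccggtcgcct

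The capitals in the Cdt1 promoter mark 2 E2F matches. The Mcm3 promoter held 2 E2F matches and 3 CCAAT boxes. In Ccnf there were 2 CHR matches and 2 CCAAT boxes, and in Top2a 1 CHR match and 4 CCAAT boxes.

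The difference in cell cycle genes changed with time. At 3 h, where 319 genes (7.31%) were called between the media, 2 of the 51 replication and mitosis genes were called, Cdca3 and Ckap2, and both were higher in CH, with a list median of -0.28. At 72 h, where 856 genes (19.6%) were called, 20 of the 51 were called and all of these were higher in CH, with a median of -0.76. The change of the difference itself was tested as an interaction. From 3 to 12 h the difference moved toward OS in 39 of the 51, against 10.3% of tested genes, and from 12 to 72 h it moved toward CH in 45, against 12.9%. Ccnf averaged 336 CPM in OS and 282 CPM in CH at 3 h, and 9.48 and 55.2 CPM at 72 h. Mcm3 averaged 355 and 483 CPM at 3 h, and 19.9 and 56.9 CPM at 72 h. Birc5 averaged 97.4 and 121 CPM at 3 h, and 1.37 and 52.6 CPM at 72 h. For these 3 genes the OS mean was above the CH mean at 12 h and below it at 72 h, and each of these differences was called.

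**Figure D1:**
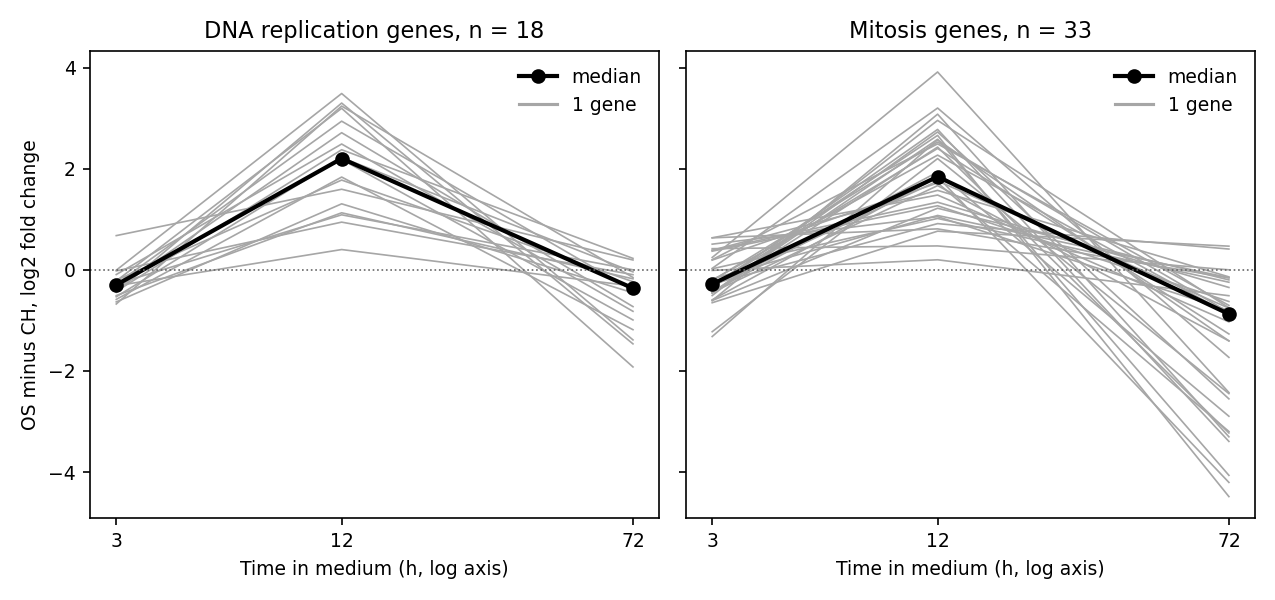
Log2 fold change (OS minus CH, vertical axis) of 18 DNA replication genes (left) and 33 mitosis genes (right) at 3, 12 and 72 h (log time axis), with a grey line for each gene and a black line for the median. The medians were -0.30, 2.20 and -0.36 for replication and -0.28, 1.84 and -0.87 for mitosis.

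Each medium was also compared with undifferentiated cells. Both comparisons share the 3 CON samples, so their values are set side by side without a measure of likeness. OS at 12 h had 952 called genes (21.8%) against CON, 640 higher (14.7%) and 312 lower (7.15%), and CH at 12 h had 630 (14.4%), 412 higher (9.44%) and 218 lower. Some of these counts moved by over 1.5 times under alternatives. With median-ratio size factors 419 genes were higher and 480 lower in OS, and 273 were higher in CH. The lower count in OS was 488 with a pseudocount of 0.1, and edgeR, which changes the test as well as the scaling, called 729 lower in OS and 423 lower in CH. The 51 replication and mitosis genes had a median log2 fold change of 2.63 in OS against CON, with 44 called higher, and of 0.14 in CH against CON, with 5 called higher. Mcm3 averaged 67.7 CPM in CON, where OS at 12 h was higher by 3.57 log2 and CH at 12 h by 0.28, the latter not called. In Ccnf the CON mean was 44.5 CPM, with log2 fold changes of 3.64 in OS and -0.27 in CH, the latter also not called. Cells in adipogenic medium for 12 h had means between those of OS and CH, with 223 CPM for Ccnf and 328 CPM for Mcm3. That order was not tested.

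The largest change of all was in Ccr1, a receptor for inflammatory chemokines, with 222, 222 and 208 CPM in OS and 0.433, 0 and 1.11 CPM in CH (log2 fold change 7.24, SE 0.28, adjusted p = 5.8e-19). It was high in each OS sample and near the floor in CH. In CON it averaged 73.9 CPM, from which OS had risen by 1.54 log2 and CH fell by 5.69. Of 19 tested genes on the cytokine and chemokine list 5 were called higher in OS and 1 in CH, with a median of 0.31. The called share was 31.6%, against 16.0% of all tested genes. The CH count was 2 without OS replicate 1 or CH replicate 3, with a pseudocount of 0.1 and with quantile normalization, and edgeR called 3. Cxcl1, which draws neutrophils, had 7076, 7677 and 7123 CPM in OS and 656, 643 and 701 CPM in CH (log2 fold change 3.45, SE 0.13, adjusted p = 2.5e-19). The OS samples were all higher, and Cxcl1 had already been called at 3 h, with a log2 fold change of 2.62. The related Cxcl2 had 10.4, 12 and 9.6 CPM in OS and 0, 0.156 and 0 CPM in CH, Cxcl3 had 6.48, 5.68 and 8.23 and 0, 0.156 and 0 CPM, and the interferon-inducible Cxcl10 had 4.97, 5.38 and 5.33 and 0.144, 0 and 0 CPM. Csf2, which encodes the growth factor GM-CSF, had 2.86, 3.14 and 3.5 CPM in OS and was listed at 0 in all 3 CH samples. For these 4 genes the CH values were 1 read at most, so no fold is given, and of the 5 genes higher in OS Cxcl1 had a mean of at least 10 CPM. Ccl2, the monocyte chemokine, went the other way, with 397, 368 and 406 CPM in OS and 1122, 861 and 1351 CPM in CH (log2 fold change -1.48, SE 0.34, adjusted p = 0.00071). Its groups did not overlap, though the CH samples were spread widely. The NF-kappaB inhibitor gene Nfkbia did not pass the test, with 320.1, 347 and 350.4 CPM in OS and 303, 397 and 305 CPM in CH (0.03, adjusted p = 0.88).

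Hypoxia-responsive genes were on balance higher in OS. Of 16 tested, 8 were called higher in OS and 2 in CH, with a median log2 fold change of 0.92 that was positive under each scaling tried. Together the calls were 62.5% of the list, against 16.0% of all tested genes. Egln3, a prolyl hydroxylase that marks hypoxia-inducible factors for degradation and is itself induced by them, had 237, 248 and 248 CPM in OS and 1.59, 2.03 and 2.69 CPM in CH (log2 fold change 6.32, SE 0.23, adjusted p = 1.2e-19). OS samples were high and CH samples all under 3 CPM. CON averaged 158 CPM, so that Egln3 in CH fell by 5.70 log2 from CON while the OS value (0.62) was not called. Bnip3, a mitophagy receptor, had 292, 326 and 309 CPM in OS and 42.2, 39.7 and 42.5 CPM in CH, also without overlap (log2 fold change 2.87, SE 0.12, adjusted p = 9.9e-18). Its CON mean was 344 CPM, and against CON the log2 fold change was -0.16 in OS (not called) and -3.02 in CH (called). Ndrg1 (1.52), a hypoxia-induced differentiation gene, and the enolase gene Eno1 (2.22) were also called. The glycolytic genes Pgk1 (1.51) and Ldha (1.16), and Pdk1 (1.28), a kinase that restrains pyruvate entry into mitochondrial metabolism, were higher in OS by smaller amounts. Ldha had 6319, 6568 and 6628 CPM in OS and 2708, 3548 and 2547 CPM in CH. Bhlhe40, a repressor of the circadian clock, was higher in CH, with 271, 267 and 272 CPM in OS and 616, 702 and 583 CPM in CH (log2 fold change -1.22). Its relative Bhlhe41, with a mean under 10 CPM, was called at -1.18, and the call was lost without OS replicate 3 (-0.98). Aldoa was called at 1.06 and lost its call without OS replicate 2 (0.9999), without CH replicate 2 (0.96) and under the 3 other scalings in limma, to 0.86 with quantile normalization. Epas1, which encodes a hypoxia-inducible factor subunit, was not called, with 1385, 1439.7 and 1349 CPM in OS and 1589, 1803 and 1574 CPM in CH (-0.25, adjusted p = 0.2).

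Other genes with large differences, or of high abundance, belonged to none of the lists. Gprc5a, an orphan receptor induced by retinoic acid, had 67, 63.1 and 60.5 CPM in OS and 2.31, 2.34 and 2.85 CPM in CH (log2 fold change 4.21). Gch1, the entry enzyme of tetrahydrobiopterin synthesis, had 31.6, 27.5 and 28 CPM in OS and 0.867, 0.623 and 0.951 CPM in CH (log2 fold change 4.05). Both were separate between the media. Trim17, a ubiquitin ligase gene, had 355, 404 and 336 CPM in OS and 27.2, 26.3 and 18.2 CPM in CH (log2 fold change 3.89). The cytochrome P450 gene Cyp3a9 had 21.2, 20.3 and 23 CPM in OS, the vascular peptide gene Apln 12.7, 12.9 and 16.5 CPM and the methyltransferase-like gene Mettl7b 15.5, 14.2 and 11.7 CPM, and all 3 genes were listed at 0 in every CH sample. Among the most abundant called genes, Anxa2, which encodes a calcium-dependent membrane-binding protein, had 8244, 8776 and 8461 CPM in OS and 1338, 1438 and 1389.6 CPM in CH (log2 fold change 2.61, SE 0.21, adjusted p = 1.9e-11). All OS samples were higher. The nuclear import gene Kpnb1 had 5032, 5059 and 4874 CPM in OS and 2344, 2518 and 2419 CPM in CH, and its log2 fold change of 1.04 was under the threshold with median-ratio scaling (0.94), with the same sum over the listed genes (0.90) and with edgeR (0.90). The secreted guidance factor gene Sema3c had 6281, 5374 and 6013 CPM in OS and 2830.0, 2667 and 3017 CPM in CH, and its log2 fold change of 1.05 (SE 0.37) was under the threshold with median-ratio scaling (0.95), with the same sum over the listed genes (0.92) and with edgeR (0.91). The adjusted p of Sema3c missed the threshold with no filter (0.067) and without OS replicate 1 (adjusted p = 0.069), OS replicate 3 (0.061), CH replicate 1 (0.057) or CH replicate 2 (0.069). Of the most abundant genes higher in CH, Ptgfrn, which encodes a regulator of the prostaglandin F2-alpha receptor, had 3615, 3824 and 3644 CPM in OS and 8342, 9679.8 and 8097 CPM in CH (log2 fold change -1.23). The actin-binding gene Lima1 had 1594, 1615 and 1512 CPM in OS and 3763, 3559.5 and 3651 CPM in CH (log2 fold change -1.22). Both were separate between the media.

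On the CH side, Sox9 led the regulators. Sox9, the transcription factor on which cartilage formation depends, had 20.2, 21.2 and 13.4 CPM in OS and 632, 718 and 564 CPM in CH (log2 fold change -5.07, SE 0.14, adjusted p = 1.1e-21). Every CH sample was far above every OS sample. CON averaged 48.0 CPM, from which OS fell by 1.37 log2 and CH rose by 3.70, and adipogenic cells at 12 h averaged 5.58 CPM. The difference between the media was already called at 3 h (-2.57) and again at 72 h (-5.30). Of 30 genes on the chondrocyte list 22 were listed and 8 tested, of which 2, Sox9 and Col9a2, were called higher in CH and 0 in OS (limma; 3 and 0 at an unadjusted p under 0.05, and 2 and 0 with edgeR). Calls made up 25.0% of those tested, against 16.0% of all tested genes. The list median was -0.37, or 0.00 with bounds, and the CH count was 1 without CH replicate 2 and at a mean of at least 10 CPM. Col2a1, which encodes type II collagen, was listed at 0 in all 6 samples, and the aggrecan gene Acan was at 1 read or none in each sample. Neither passed the filter over all 30 samples. Col9a2, a chain of the type IX collagen of cartilage, had 0.301, 0.299 and 0 CPM in OS and 2.17, 2.49 and 0.792 CPM in CH. These are a few reads, and without CH replicate 2 its call was lost (log2 fold change -0.9998). By 72 h Col9a2 averaged 0.4 CPM in OS and 34.2 CPM in CH.

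Large differences toward CH were also seen outside the cartilage list. Angptl7, a secreted angiopoietin-like factor, had 3.47, 4.78 and 3.35 CPM in OS and 350.4, 473 and 290.5 CPM in CH (log2 fold change -6.24, SE 0.56, adjusted p = 2e-10). The CH samples were all higher and varied more. Angptl7 averaged 0.49 CPM in CON, 498 CPM in CH at 3 h and 8135 CPM in CH at 72 h. Crispld2, a secreted protein gene induced by glucocorticoids, had 27.3, 30.5 and 34 CPM in OS and 711, 783 and 644 CPM in CH (log2 fold change -4.50, SE 0.23, adjusted p = 4e-16). Both media were above the CON mean of 2.5 CPM, by 3.17 log2 in OS and 7.67 in CH. Sema7a, a membrane-anchored semaphorin, had 21.1, 20.6 and 18.4 CPM in OS and 496, 561 and 479 CPM in CH (log2 fold change -4.61, SE 0.17, adjusted p = 1.2e-19). Again the groups were well apart. At 3 h Sema7a had been high in both media, with means of 638 CPM in OS and 1256 CPM in CH. Palmd (-4.49), Brinp2 (-4.36) and Plxdc2 (-3.94) had means of 53.4, 33.8 and 25.8 CPM in CH. Lrrc17 had 11.3, 11.1 and 8.24 CPM in CH and the aquaporin gene Mip 9.82, 11.8 and 7.45 CPM, and both were listed at 0 in every OS sample.

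**Figure D2:**
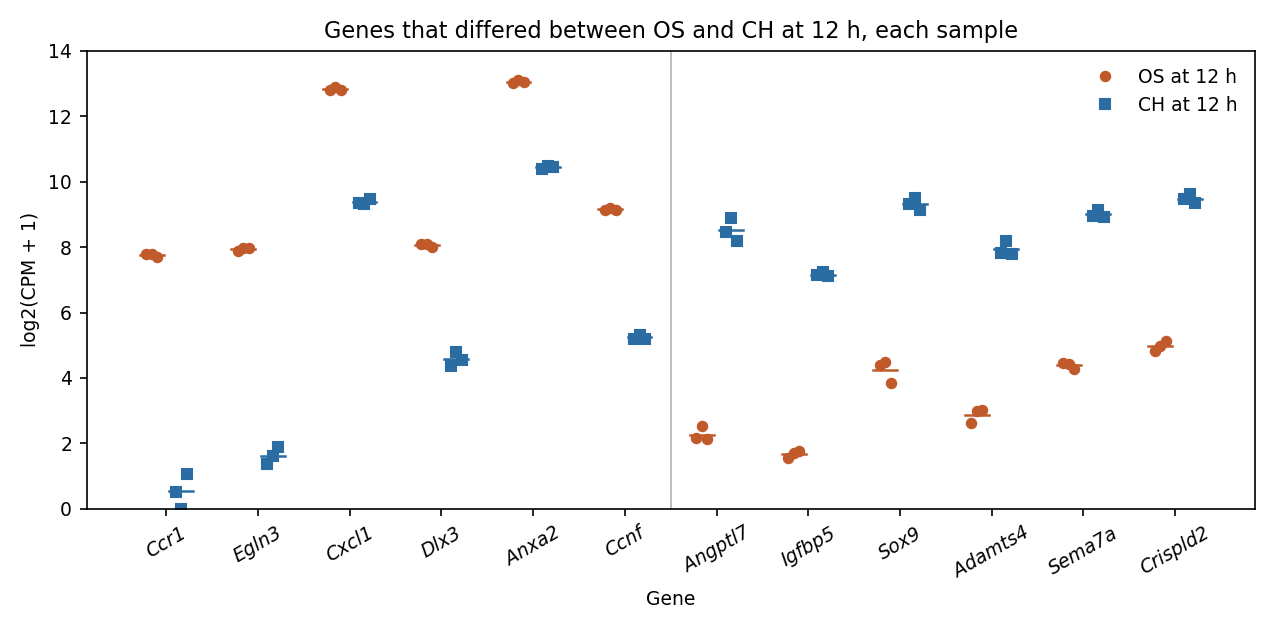
Value of each sample, as log2(CPM + 1), for 12 genes that differed between OS (circles) and CH (squares) at 12 h, with a short line at the group mean. The 3 OS samples and the 3 CH samples were apart for each gene, from Ccr1 (log2 fold change 7.24) to Angptl7 (-6.24).

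Insulin-like growth factor signalling is tuned by binding proteins that hold the ligand, and on this list 3 of 13 tested genes were called higher in CH and 0 in OS (limma; 4 and 3 at an unadjusted p under 0.05, and 4 and 0 with edgeR). The median was -0.08, close to that of all genes. Calls made up 23.1% of the list, against 16.0% of all tested genes. At that unadjusted p, 835 of all 4363 tested genes were higher in CH and 1055 in OS. Igfbp5, such a binding protein, had 1.96, 2.24 and 2.44 CPM in OS and 139, 149 and 138 CPM in CH (log2 fold change -5.48, SE 0.74, adjusted p = 4.6e-07). The values within each medium were close together, although the SE, estimated over all 30 samples, was large. Igfbp5 reached a mean of 32633 CPM in CH at 72 h. Sesn3, a stress-induced regulator of mTOR signalling, had 52.6, 50.1 and 44.5 CPM in OS and 260.3, 307 and 269 CPM in CH (log2 fold change -2.48, SE 0.13, adjusted p = 3.9e-16). Its groups were separate as well. Pik3r3, a regulatory subunit of PI 3-kinase, was called at -1.42. Igfbp6 did not pass the test, with 173, 174 and 176 CPM in OS and 176, 212 and 154 CPM in CH (-0.04).

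Signalling by transforming growth factor beta (TGF-beta) and bone morphogenetic proteins (BMPs) is used in both bone and cartilage formation. Of 63 genes on the list 26 were listed and 16 tested, and 2 were called higher in OS and 6 in CH, with a median of -0.69 that was negative under each scaling tried. Among ligands, Gdf6, a BMP family member of joint and cartilage development, had 0.904, 0.897 and 0.305 CPM in OS and 28, 28.8 and 23.4 CPM in CH (log2 fold change -4.04, SE 0.33, adjusted p = 2.3e-11). It was at a few reads in OS and higher in each CH sample. Inhbb, which encodes an activin subunit, was higher in OS, with 248, 265 and 257 CPM against 107, 129 and 108 CPM in CH, and its log2 fold change of 1.16 was under the threshold with quantile normalization (0.98). Tgfb1 itself had 231, 248 and 217 CPM in OS and 336, 411 and 329 CPM in CH and was not called (-0.62). Of the receptors and their partners, Tgfbr3, the co-receptor betaglycan, had 999.9, 980.4 and 1001 CPM in OS and 124, 141 and 120.4 CPM in CH (log2 fold change 2.95, SE 0.10, adjusted p = 7.5e-20). OS samples were all higher. From the CON mean of 863 CPM Tgfbr3 in CH fell by 2.74 log2, whereas the OS value (0.20) was not called. Bambi, a pseudoreceptor that blocks the pathway, was called higher in CH at -1.71. Among targets, Tgfbi, an extracellular matrix protein named for its induction by TGF-beta, had 11.9, 17.5 and 15.2 CPM in OS and 154, 187 and 156 CPM in CH (log2 fold change -3.40, SE 0.30, adjusted p = 1.7e-10). Tsc22d1, another TGF-beta-stimulated gene, had 1.96, 3.74 and 5.03 CPM in OS and 59.1, 72 and 60.2 CPM in CH (log2 fold change -3.88). The CH samples of both were higher without overlap. Atoh8 was called at -1.31, and Cyr61, a matricellular protein gene, at -1.10, a call lost without CH replicate 2 (-0.94). Id3, a common BMP target, was not called, with 256, 301 and 258 CPM in OS and 288, 288 and 274 CPM in CH.

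Genes of tendon and fibrous matrix leaned toward CH. Of 33 genes on the list 15 were listed and 13 tested, and 5 were called higher in CH and 0 in OS (limma; 7 and 1 at an unadjusted p under 0.05, and 6 and 0 with edgeR), with a median of -0.65. Calls made up 38.5% of those tested, against 16.0% of all tested genes. Scx, the transcription factor of tendon progenitors, had 3.31, 0.897 and 1.22 CPM in OS and 20.1, 18.5 and 17.9 CPM in CH (log2 fold change -2.91, SE 0.33, adjusted p = 1.7e-08). All CH samples were higher, and Scx was also called toward CH at 3 h (-2.31) and 72 h (-4.35). Col5a1, a chain of the type V collagen that seeds fibrils, had 2.71, 5.38 and 3.96 CPM in OS and 20.1, 23.1 and 19.8 CPM in CH (log2 fold change -2.16). The microfibril gene Fbn2 had 4.22, 4.19 and 4.27 CPM in OS and 16.3, 23.8 and 17.9 CPM in CH (log2 fold change -1.95). Col5a2 (-1.56) and Itgbl1 (-2.06) completed the calls. Lox, which cross-links collagen, had 41.1, 45.1 and 44.6 CPM in OS and 85.9, 96.5 and 71.6 CPM in CH and missed the fold threshold (-0.93, adjusted p = 0.0045).

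Contractile and cytoskeletal genes, such as those of smooth muscle actin filaments, were mostly higher in CH where they were called. Of 30 tested, 12 were called higher in CH and 1 in OS, with a median of -0.52 that was negative under each scaling tried. The called share was 43.3%, against 16.0% of all tested genes. The OS count was 2 without OS replicate 3, with a pseudocount of 0.1, with quantile normalization and with edgeR. Of the 12, 5 had a mean of at least 10 CPM, as did 0 in OS. Cnn1, which encodes the actin-binding protein calponin, had 71.1, 74.4 and 74.3 CPM in OS and 393, 358 and 413 CPM in CH (log2 fold change -2.39, SE 0.17, adjusted p = 1e-12). All CH samples were higher, and relative to the CON mean of 87.9 CPM the log2 fold change was -0.26 in OS (not called) and 2.13 in CH (called). Tagln, which encodes another actin-binding protein of smooth muscle, had 19, 14.8 and 14.9 CPM in OS and 69, 69.7 and 72.4 CPM in CH (log2 fold change -2.06). Csrp1, a LIM protein gene, had 769, 812 and 770.5 CPM in OS and 2015, 2276 and 2024 CPM in CH (log2 fold change -1.42, adjusted p = 3.3e-12). Both were separate between the media. At 3 h Cnn1 had stood at 387 CPM in OS and 441 CPM in CH and was not called (-0.19). The non-muscle myosin gene Myh10 had 2030.1, 1912 and 1884 CPM in OS and 3579.9, 4501 and 3771 CPM in CH, and its log2 fold change of -1.02 was under the threshold without OS replicate 3 (-0.9964) or CH replicate 2 (-0.92). Vcl (-1.08) lost its call without CH replicate 3 (-0.97), and Pdlim7 (-1.07) without OS replicate 2 (-0.83) or CH replicate 1 (-0.98). Ankrd1 (-1.06) was likewise under the threshold without OS replicate 1 (-0.9988), OS replicate 2 (-0.997), CH replicate 2 (-0.998) or CH replicate 3 (-0.99). Des, the muscle intermediate filament gene, was the exception, with 6.78, 7.17 and 7.46 CPM in OS and 0.433, 0.467 and 0.792 CPM in CH (log2 fold change 2.39). Actn4, an actin cross-linker gene, had 499.6, 549 and 529.7 CPM in OS and 489, 472 and 525 CPM in CH and was not called (0.09).

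Matrix proteases and related genes split by member. Of 20 tested, 2 were called higher in OS and 4 in CH, with a median of -0.09. Adamts4, an aggrecanase, had 5.12, 6.88 and 7.16 CPM in OS and 226, 292 and 219.7 CPM in CH (log2 fold change -5.06, SE 0.15, adjusted p = 2.6e-21). The groups were far apart, and against the CON mean of 52.4 CPM OS fell by 2.86 log2 while CH rose by 2.20. Adamts8, another protease of the family, did the reverse, with 183, 198 and 184 CPM in OS and 16.6, 21.8 and 19.8 CPM in CH (log2 fold change 3.22, SE 0.35, adjusted p = 8.6e-09). Every OS sample was higher. Adamts14 (-2.88), which trims procollagen, was called toward CH and Mmp16 (1.58), a membrane-bound metalloproteinase, toward OS. Has2, which synthesizes hyaluronan, had 50, 50.4 and 55.4 CPM in OS and 253, 237 and 256 CPM in CH (log2 fold change -2.24, SE 0.27, adjusted p = 5.7e-08). CH was higher at 12 h, whereas at 3 h the means had been 643 CPM in OS and 48.3 CPM in CH, a called difference of 3.69 in the other direction. Plau, the urokinase that activates plasminogen, changed sides too, from 2.29 at 3 h to -1.74 at 12 h. Its values at 12 h were 7.08, 9.72 and 8.53 CPM in OS and 28.9, 34.7 and 27.6 CPM in CH. The gelatinase gene Mmp2 had 4547, 5026 and 4753 CPM in OS and 7862, 9422 and 7259 CPM in CH and did not reach the fold threshold (-0.77, adjusted p = 0.00092).

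Osteoblast genes were called in both directions. Of 31 on the list 20 were listed and 10 tested, and 2 were called higher in OS and 3 in CH, with a median of -0.46, or -0.22 with bounds. Dlx3 and Ankh were the calls with a mean of at least 10 CPM. Dlx3, a homeobox factor that promotes osteoblast genes, had 272, 269.8 and 258 CPM in OS and 19.8, 26.6 and 22.3 CPM in CH (log2 fold change 3.49, SE 0.30, adjusted p = 5.8e-11). OS samples were all higher, and the difference was also called at 3 h (1.70) and 72 h (4.28). Hopx, a homeodomain protein without DNA binding of its own, had 14.3, 13.6 and 13.7 CPM in OS and 0.867, 0.623 and 0.158 CPM in CH (log2 fold change 3.29). Ibsp, which encodes bone sialoprotein, was higher in CH, with 1.81, 1.35 and 1.07 CPM in OS and 10.5, 16.4 and 11.2 CPM in CH (log2 fold change -2.50, SE 0.28, adjusted p = 2.2e-08). The CH samples were all above the OS samples, and at 72 h Ibsp averaged 2.8 CPM in OS and 247 CPM in CH. Ankh, a pyrophosphate transporter that restrains mineralization, had 263, 292 and 268 CPM in OS and 939, 1002 and 1015 CPM in CH (log2 fold change -1.84). Postn, an adhesive matrix protein gene, had 4.91, 1.4 and 3.33 CPM in CH and was listed at 0 in all OS samples. Sp7 and Alpl, markers of osteoblast commitment, were listed at 0 in all 6 samples and were not tested, and Runx2 was not analysed here. Mgp, an inhibitor of calcification, was not called, with 142, 152 and 134 CPM in OS and 213, 184 and 186 CPM in CH (-0.44, adjusted p = 0.14). From the CON mean of 2652 CPM Mgp fell by 4.21 log2 in OS and fell by 3.77 log2 in CH.

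Genes of fat cells and of lipid synthesis were compared as well. Of 11 adipocyte genes tested, 1 was called higher in CH and 0 in OS (limma; 2 and 1 at an unadjusted p under 0.05, and 2 and 0 with edgeR), with a median of 0.00. That gene, Dgat2, which completes triglyceride synthesis, had 22.4, 25.6 and 22.7 CPM in OS and 50.3, 50.5 and 46.4 CPM in CH, and its log2 fold change of -1.03 was under the threshold without OS replicate 1 (-0.9955). The CH count was also 2 with a pseudocount of 0.1 and without OS replicate 3, CH replicate 1 or CH replicate 3. Pparg, the regulator of fat cell formation, was not called, with 0.603, 0 and 0.152 CPM in OS and 0, 0 and 0 CPM in CH, and Fasn, which makes fatty acids, had 3676, 3938 and 3759.9 CPM in OS and 3654, 4465 and 3328 CPM in CH (0.00). Of 19 genes of cholesterol and fatty acid synthesis 1 was called higher in OS and 2 in CH, with a median of 0.00. Calls made up 15.8% of this list and 9.09% of the adipocyte list, against 16.0% of all tested genes. Fdps, an enzyme of the sterol pathway, had 18.5, 16.3 and 15.5 CPM in OS and 54.9, 64.7 and 45 CPM in CH (log2 fold change -1.64, SE 0.19, adjusted p = 3.6e-08). It was higher in all CH samples. Mylip (1.23), a ubiquitin ligase that lowers the LDL receptor, was higher in OS, and Insig1, a sterol sensor, was not called (0.39).

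Feedback regulators of growth factor signalling were higher in OS where called. On the immediate-early and MAPK feedback list 6 of 15 tested genes were called higher in OS and 0 in CH (limma; 6 and 3 at an unadjusted p under 0.05, and 5 and 2 with edgeR), with a median of -0.07. The called share was 40.0%, against 16.0% of all tested genes. Without CH replicate 1 there was 1 call in CH, and with a pseudocount of 0.1 there were 2. Spry2, an inhibitor of receptor tyrosine kinase signalling, had 18.4, 38.1 and 21.2 CPM in OS and 2.74, 1.87 and 0.951 CPM in CH (log2 fold change 3.22, SE 0.33, adjusted p = 4.3e-09). OS samples were higher but spread widely. Dusp6, a phosphatase of ERK, had 102, 98.8 and 106 CPM in OS and 25.7, 32.4 and 20.6 CPM in CH (log2 fold change 1.94). Jun, a subunit of AP-1, had 21.1, 17 and 21 CPM in OS and 3.76, 3.74 and 3.64 CPM in CH (log2 fold change 2.13, adjusted p = 1e-06). Its groups were apart at 12 h, and at 3 h it had been called toward CH (-1.01). Dusp4 (1.21) was under the threshold with quantile normalization (0.93). Dusp10 (1.10) lost its call without CH replicate 3 (0.99) and under the other scalings and edgeR, to 0.86 with quantile normalization. Areg, a ligand of the EGF receptor, had 1.51, 1.79 and 0.914 CPM in OS and 0, 0.156 and 0 CPM in CH. Ier3, an immediate-early gene, had 0.452, 1.05 and 0.914 CPM in OS and 1.16, 2.18 and 1.27 CPM in CH and was not called.

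The remaining pathway lists are given beside the 16.0% of all tested genes that were called. On the glucocorticoid-responsive list 1 of 8 tested genes was called in each direction, with a median of -0.26, or -0.10 with bounds. Mt2A, a metallothionein gene, had 1000.2, 1083 and 1019.7 CPM in OS and 303, 281 and 276 CPM in CH (log2 fold change 1.85), opposite to Crispld2 (-4.50). Tsc22d3, a leucine zipper gene induced by glucocorticoids, was not called, with 66.9, 81.2 and 76 CPM in OS and 103, 107 and 97.7 CPM in CH (-0.45), and both media were above CON, by 1.40 and 1.85 log2. On the Wnt list 1 of 18 tested genes was called higher in OS and 2 in CH, with a median of -0.27, or -0.20 with bounds, and both the fit on the compared groups alone and edgeR called 4 in CH. Without CH replicate 2 there was 1 call in CH, and at a mean of at least 10 CPM there were 0. Fzd4, a Wnt receptor, had 205, 203 and 198 CPM in OS and 41.6, 48.9 and 51 CPM in CH (log2 fold change 2.08, SE 0.16, adjusted p = 7.2e-12). OS samples were higher, as at 3 h (2.03) and 72 h (3.70). Wisp2 had 3.18, 5.77 and 3.01 CPM in CH and was listed at 0 in OS, and the Dkk3 call (-1.07) was lost without CH replicate 1 (-0.96) or CH replicate 2 (-0.95). Among Notch, Hedgehog and Hippo genes 1 of 15 was called in each direction, with a median of -0.18, or -0.28 with bounds. The OS count was 2 without OS replicate 1 and the CH count 2 without CH replicate 2. A pseudocount of 0.1 and edgeR each gave 2 and 3, and quantile normalization gave an OS count of 2. At a mean of at least 10 CPM the OS count was 0. The receptor gene Notch1 had 5.27, 6.58 and 9.44 CPM in OS and 0.578, 0.467 and 0.792 CPM in CH (log2 fold change 2.30). Cdon, a Hedgehog co-receptor, had 143, 154 and 148 CPM in OS and 386, 396 and 375 CPM in CH (log2 fold change -1.37). Both were separate between the media. On the amino acid and unfolded protein list 2 of 24 genes were called higher in OS and 1 in CH, with a median of 0.19, and the CH count was 2 with edgeR, with each of the other scalings and without CH replicate 3. Creb3l1, a secretory pathway factor needed for collagen output, had 349, 384 and 360.1 CPM in OS and 1851, 2378 and 1673 CPM in CH (log2 fold change -2.42, SE 0.18, adjusted p = 2.1e-12). It was higher in all CH samples, as was the vesicle coat gene Sec24d, with 854, 853 and 839.5 CPM in OS and 2148, 2338 and 2089 CPM in CH (-1.37). Phgdh, the entry to serine synthesis, was higher in OS (1.51), as was Chac1 (1.58), which degrades glutathione. The chaperone gene Hspa5 was not called (-0.40).

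Ribosomal protein genes were also compared, although 14 of the 42 listed had a mean under 1 CPM. Of those tested, 24 had a positive log2 fold change and 5 a negative one. Of 29 tested, 0 were called in either direction (limma; 13 higher in OS and 0 in CH at an unadjusted p under 0.05, and 0 and 0 with edgeR), with a median of 0.27 that was positive under each scaling tried. Quantile normalization, and the fit without CH replicate 1, each called 1 higher in OS.

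**Figure D3:**
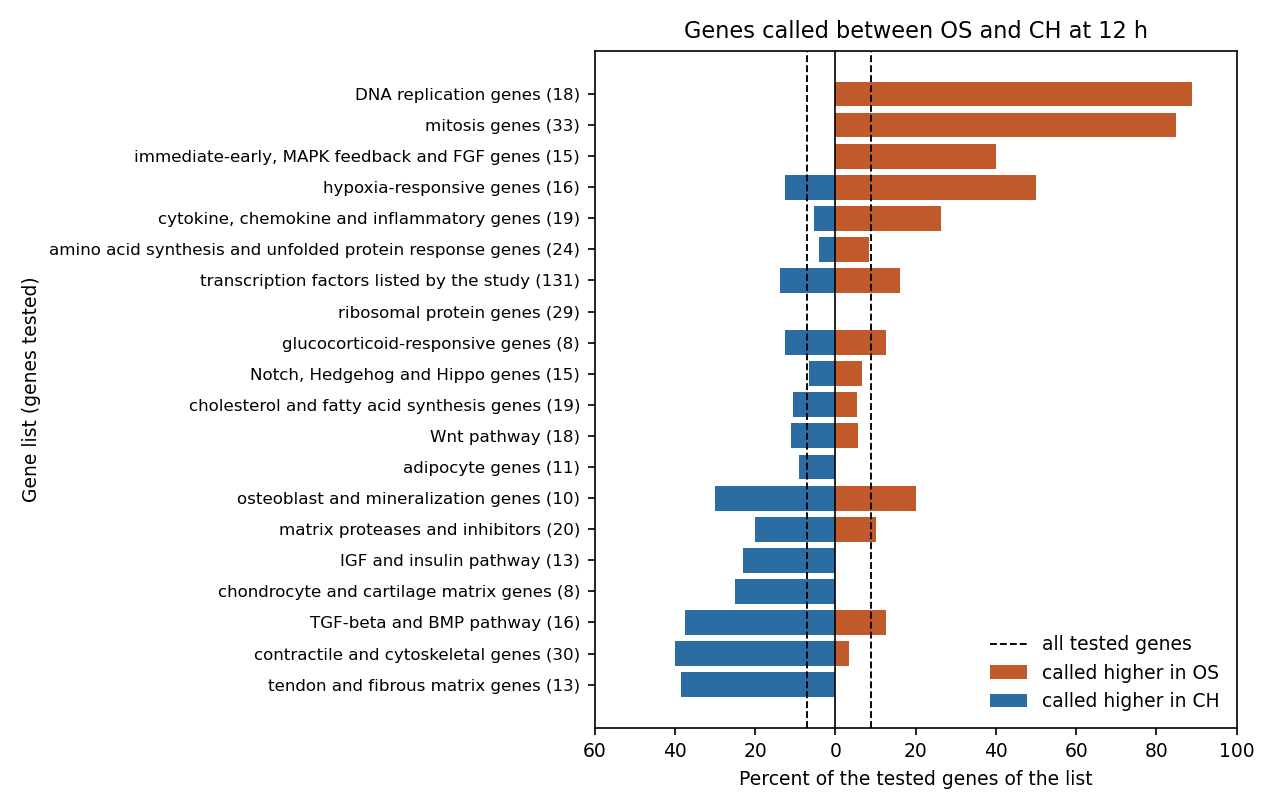
Percent of the tested genes of each list that were called higher in OS (to the right) or higher in CH (to the left) at 12 h, with the number tested in parentheses and dashed lines at the shares of all tested genes, 8.87% and 7.08%. Of the lists drawn, which do not include the histone genes, DNA replication (16 of 18 higher in OS) and mitosis (28 of 33) had the largest shares higher in OS, and the list of transcription factors was chosen by the study on these samples.

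Of 142 transcription factors that the study listed from these samples, and which are thus no independent evidence, 131 were tested. Of those, 21 were called higher in OS and 18 in CH (29.8%, against 16.0% of all tested genes), with a median of 0.04. At a mean of at least 10 CPM there were 10 and 8. The largest changes were Dlx3 and Hopx toward OS and Sox9, Tsc22d1 and Scx toward CH. Klf4, a zinc finger factor that restrains proliferation in many tissues, had 1011, 1000.4 and 972 CPM in OS and 171, 173 and 179 CPM in CH (log2 fold change 2.51, SE 0.21, adjusted p = 4.7e-11). The OS samples were closely grouped and all higher. Pax8, a paired box factor, had 24.7, 20.9 and 22.2 CPM in OS and 3.9, 3.43 and 2.53 CPM in CH (log2 fold change 2.47). Klf5 (1.66), the telomere-binding Terf1 (1.79) and the forkhead gene Foxc2 (1.26) were also higher in OS. Toward CH, the basic leucine zipper gene Maf (-1.30), the zinc finger gene Zfp521 (-1.61), the Myc antagonist Mxd4 (-1.42) and Hic1 (-1.22) were called. Rab24, which the study's list holds although it encodes a small GTPase, had 33.4, 27.2 and 26.2 CPM in OS and 2.6, 5.3 and 4.12 CPM in CH (log2 fold change 2.61). It had been higher in CH at 3 h (-1.12) and was so again at 72 h (-2.43). Gbx2, a homeobox gene, was not called at 12 h, with 1.21, 0 and 0.152 CPM in OS and 1.59, 1.87 and 1.27 CPM in CH (-0.91, adjusted p = 0.022).

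Calls at 12 h were set against those at 3 and 72 h, which come from other samples. At 3 h 98 genes were higher in OS (2.25%) and 221 in CH (5.07%). With edgeR these counts were 158 and 242, and with quantile normalization 123 and 161. The shared counts were taken from the limma calls. Of the genes higher in OS at 12 h, 40 were also higher at 3 h, which was 10.3% of the 12 h list and 40.8% of the 3 h list, whereas 90 of the genes higher in CH were shared, 29.1 and 40.7% of the lists. At 72 h 373 genes were higher in OS (8.55%) and 483 in CH (11.1%). Shared with 12 h were 78 genes higher in OS (20.2 and 20.9% of the lists) and 139 higher in CH (45.0 and 28.8%). Genes called in opposite directions, with the change between the times also called, numbered 12 (0.275%) between 12 and 3 h and 77 (1.76%) between 12 and 72 h. Of the 77, 62 were higher in OS at 12 h and 15 higher in CH. Replication, mitosis and histone genes made up 28 of those 62. The 4363 tested genes held 51 of replication and mitosis and 18 of histones. Tgfbr3, higher in OS at 12 h, was so by a larger amount at 72 h (5.83), with the change between the times also called, when it averaged 4247 CPM in OS and 74.0 CPM in CH. Ace, which encodes angiotensin-converting enzyme, was higher in CH at 12 h (-1.59) and in OS at 72 h (4.62). Its values at 12 h were 1.21, 1.2 and 1.22 CPM in OS and 5.63, 6.08 and 5.23 CPM in CH, and at 72 h it averaged 70.8 and 1.98 CPM.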

How the data were processed

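RNA sequencing values of 30 samples in 10 groups were used, and 6 of them were compared here. The values, deposited by the authors under the name FPKM, were CPM: the reads of each gene had been divided by a total per sample and scaled, with no gene length. Trimmomatic, HISAT2 and StringTie are named in the submitters' notes without versions, and neither the genome build nor the counting step is stated. The study's methods describe an mRNA library, whereas the labels name a ribosomal RNA depletion kit, so the library type is uncertain. All values were whole multiples of a step per sample (tolerance 0.05 of a read), from which reads were recovered. The totals behind the 30 samples were 3899609 to 9046719 reads. Each file held 10803 entries, and those that shared a gene name were summed, giving 9999 names, of which 729 had occurred more than once. Of the names, 8356 matched RefSeq symbols and 454 a synonym alone.

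A limma model (lmFit, contrasts.fit and eBayes with trend) with 1 mean per group was fitted to log2(CPM + 1) of all 30 samples, with two-sided moderated tests and Benjamini-Hochberg adjustment over the 4363 tested genes of each comparison. Calls needed a difference of 1 or more on the log2 scale and an adjusted p under 0.05. Changes between times were interaction contrasts. A count of genes whose groups do not overlap carries no test. For medians given with bounds, genes with 3 reads or fewer in every sample of a group were set to their bound at that floor. Versions were R 4.3.3, limma 3.58.1, edgeR 4.0.16, Python 3.11.15, numpy 2.4.6, pandas 2.3.3 and matplotlib 3.10.9, and the fit was tested on simulated data. Alternatives were a pseudocount of 0.1, no filter, median-ratio size factors, quantile normalization, rescaling of the listed genes to a common sum, the compared groups alone, replicate number as a block, no trend, names kept apart, an edgeR quasi-likelihood test on the recovered reads, and fits that dropped 1 of the compared samples at a time. A mean of at least 10 CPM, and all alternatives for the comparisons with CON, were chosen after seeing the data.

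Members and gene lists were chosen with earlier results of these data known. Genes named were the 15 with the largest log2 fold change in each direction among called genes without overlap, the 5 most abundant called genes in each direction, called members of the lists with examples that were not called, called transcription factors of the study's list, genes called in opposite directions at 12 h and at 3 or 72 h, and 13 lineage markers, 236 genes in all. Others, such as those of the histone list, were chosen after their values were seen.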

Additional observations from a re-analysis of the deposited data

Results flagged for a closer look

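The difference between OS and CH changed with time in many genes, by an interaction test in limma. From 3 to 12 h it changed in 616 of 4363 tested genes (14.1%), and from 12 to 72 h in 981 (22.5%). The genes called in opposite directions numbered 12 for 12 and 3 h and 77 for 12 and 72 h.

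For the 12 genes, the log2 change of the OS minus CH difference from 3 to 12 h was 2.45 for Cacna1h, 3.42 for Cdca3, 3.89 for Ckap2, 2.66 for Flrt1, 3.14 for Jun, 2.56 for Mrnip, 3.28 for RGD1560010, 3.73 for Rab24, 2.38 for Rfx2 and 2.04 for Snai2, all toward OS. It was -5.93 for Has2 and -4.03 for Plau, toward CH. Flrt1 averaged 0.16 CPM in CH at 12 h and 0.25 CPM in OS at 3 h, and Cacna1h 0.2 CPM in CH at 12 h. These means were under the floor of 3 reads, so the size of the change in Flrt1 and Cacna1h is uncertain. The 12 h call was lost without OS replicate 1 for Cacna1h (log2 fold change of 0.94), and for Snai2 without OS replicate 1, OS replicate 3 or CH replicate 1 (log2 fold changes of 0.95, 0.96 and 0.85). Snai2 also lost it with median-ratio scaling (0.93), quantile normalization (0.93) and the same sum over the listed genes (0.89).

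Of the 77 genes, the 5 with the largest change in each direction are given. The difference from 12 to 72 h moved toward CH by -8.65 for LOC102549061, -7.39 for Hist1h1a, -7.14 for Birc5, -6.69 for Hist1h2ak and -6.65 for Nuf2. It moved toward OS by 6.20 for Ace, 4.54 for Dgat2, 4.51 for LOC100911545, 4.29 for Wisp2 and 4.19 for Cavin2. The OS values of Wisp2 were listed at 0 at 12 h, and LOC100911545 averaged 0.3 CPM in OS at 12 h, under the floor. The size of the change in these 2 genes is thus uncertain. The 12 h call of Dgat2 was lost without OS replicate 1 (-0.9955).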

How the results depend on the processing

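Called genes at 12 h numbered 673 to 708 with other scalings of the values, no filter, the compared groups alone, replicate number as a block, no trend or names kept apart, 913 with a pseudocount of 0.1 and 906 with edgeR, against 696. A mean of at least 10 CPM left 365 (237 higher in OS and 128 in CH), since fewer genes were tested. EdgeR called 525 higher in CH at 12 h, 158 higher in OS at 3 h and 278 that moved toward CH from 3 to 12 h, for which quantile normalization gave 262. For OS against CON, 419 genes were higher with median-ratio scaling and 404 with the same sum over the listed genes, while 480 and 494 were lower, as were 488 with a pseudocount of 0.1 and 729 with edgeR. For CH against CON, 273 and 272 were higher with those scalings and 423 lower with edgeR. The causes were not tested. Of 226 named called genes, 194 kept their call under every alternative that gave them a single value, 32 lost it under at least 1, and none was called in the other direction. Names kept apart gave a single value for 204 of the 226, and 137 had a mean of at least 10 CPM. Of the other names, some had an entry without a call, such as Ndrg1 (0.95 and 0.14), Rrm1 (-0.06) and Vcl (-0.40).

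When 1 of the compared samples at a time was dropped, calls numbered 687 to 708 at 12 h (384 to 398 in OS, 303 to 322 in CH), 290 to 343 at 3 h (86 to 117, 204 to 230) and 813 to 880 at 72 h (351 to 389, 444 to 491). The change from 3 to 12 h was called in 558 to 631 (411 to 480 toward OS, 144 to 181 toward CH) and that from 12 to 72 h in 873 to 957 (368 to 413, 497 to 562). Against CON there were 957 to 985 in OS (637 to 660 higher, 314 to 329 lower) and 596 to 675 in CH (370 to 450, 219 to 232). Whether replicate numbers pair samples could not be decided. The deviations of OS and CH samples of the same number from their group means correlated over tested genes at 0.0158, 0.066 and 0.0242. Between samples of different numbers the correlations ran from -0.0588 to 0.0344. Deviations within a group of 3 sum to 0 and genes are not independent replicates, so these values cannot settle it.

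Several limits hold throughout. The samples were pools of cultures, and how these relate to the animals is not stated. Genes at 3 reads or fewer were not resolved at this depth, and abundant genes of stromal cells were listed near 0 in these files. The composition of the media is not known here, so the part of any component was not tested, and no uninduced cells at 12 h were available here.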
